A study of Mus musculus with 9 samples.

Results

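The keratins of the basal and suprabasal layers of mouse epidermis were followed across 3 treatment groups. Their genes were chosen by symbol from the deposited gene table and comprise Krt5, Krt14, Krt15, Krt1, Krt10, Krt2, Krt77, Krt78, Krt79 and Krt80, which are 10 of the 52550 genes listed. All 10 passed the low-count filter in each of the 3 comparisons. The 44 other keratin genes of the table were used for comparison only.

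RNA was sequenced from ear epidermis of male wild type C57BL/6 mice (C57BL/6J in the paper) aged 8 weeks, in 3 groups of 3 libraries. The control group (VAS + H2O) had Vaseline on the skin for 5 days and water by gavage for 10 days. The model group (IMQ + H2O) had imiquimod, an agonist of Toll-like receptors that induces psoriasis-like dermatitis, in place of Vaseline, with the same water gavage. The XYF group (IMQ + XYF) had imiquimod for the same 5 days and 200 µl of the herbal decoction Xiao-Yin-Fang at 23.3 mg/g by gavage for the same 10 days, beginning 5 days before the imiquimod. No group had the decoction without imiquimod, so its effect on untreated skin was not measured. The epidermal sheets are described as coming from a pair of mice without saying whether that holds for each library. The p-values therefore measure the spread between these libraries, which may be technical.

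Keratins are the intermediate filament proteins of epithelial cells. Each filament is built from pairs of a type I and a type II keratin. Basal keratinocytes, which rest on the basement membrane and divide, make KRT5 with KRT14, and KRT15 is a further type I keratin of basal cells and of the hair follicle bulge. Cells that leave the basal layer turn to KRT1 and KRT10, the pair that fills the spinous layer, and KRT2 is a type II keratin of the upper spinous and granular layers. In injured or inflamed skin keratinocytes above the basal layer also make KRT6, KRT16 and KRT17.

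The libraries held 44681447, 31034401 and 34689174 counts in VAS + H2O, 30298275, 39617029 and 43815369 counts in IMQ + H2O, and 64771160, 33208358 and 34913386 counts in IMQ + XYF, in the order of the replicate numbers used throughout. The 10 keratins took 7.59%, 6.84% and 8.32% of the counts in libraries of VAS + H2O, 10.2%, 8.95% and 7.58% in those of IMQ + H2O and 7.83%, 8.77% and 8.69% in those of IMQ + XYF. Gene levels are given as CPM, counts scaled to the same library size, after TMM, a normalization that sets most genes equal between libraries. A count of 3, the floor of detection for counting error alone, corresponded to between 0.0471 and 0.104 CPM, so every keratin of the 10 was measured far above it in each library. Replicates varied beyond what counting alone gives, at 26.2 to 83.5 for the chi-square per gene over pairs of libraries of a group.

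Levels of different keratins were compared per kilobase of their principal transcript. On this scale Krt10 and Krt2 had the highest levels in every group, with 12400 ± 1390 and 11000 ± 1290 CPM per kb (SD, n = 3) in VAS + H2O, and the spreads of these neighbours overlapped. Krt14 at 3510 ± 540 and Krt5 at 3340 ± 628 CPM per kb (SD, n = 3) followed, also with overlapping spreads. Krt15 came next at 1340 ± 215 CPM per kb (SD, n = 3), and Krt1 after it at 488 ± 82.3. The remaining 4 had between 47.5 and 207 CPM per kb, with Krt79 the highest and Krt78 the lowest of them. In IMQ + H2O the order of Krt15 and Krt1 was exchanged, at 316 ± 89.7 and 1350 ± 322 CPM per kb (SD, n = 3). In IMQ + XYF they were again in the exchanged order, at 388 ± 40.4 and 1230 ± 126 CPM per kb (SD, n = 3). On this scale the order of the other 8 was the same in all 3 groups, while per kilobase of all exons that of Krt77, Krt79 and Krt80 differed in each group.

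The type I and type II keratins of the set were present in nearly equal amounts. Summed per kilobase, the ratio of type II to type I was 0.908, 0.869 and 0.888 in libraries of VAS + H2O, 0.988, 0.907 and 0.895 in those of IMQ + H2O and 0.903, 0.945 and 0.897 in those of IMQ + XYF. Of the summed level per kilobase of the 10, Krt2 and Krt10 together made up 71.9% ± 0.957 (SD, n = 3) in libraries of VAS + H2O, 70.0% ± 6.92 in those of IMQ + H2O and 67.3% ± 2.19 in those of IMQ + XYF. Krt5 and Krt14 made up 20.9% ± 0.877, 24.8% ± 6.44 and 27.1% ± 1.77 (SD, n = 3) in the same order. The share of Krt15 was 4.10% ± 0.135 in libraries of VAS + H2O, 0.776% ± 0.221 in those of IMQ + H2O and 1.02% ± 0.158 in those of IMQ + XYF (SD, n = 3). The share of Krt1 was 1.49% ± 0.101, 3.29% ± 0.726 and 3.20% ± 0.339 (SD, n = 3). The groups that received imiquimod thus had a smaller part of Krt15 and a larger part of Krt1 than the control group, with no overlap between libraries.

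**Figure D1:**
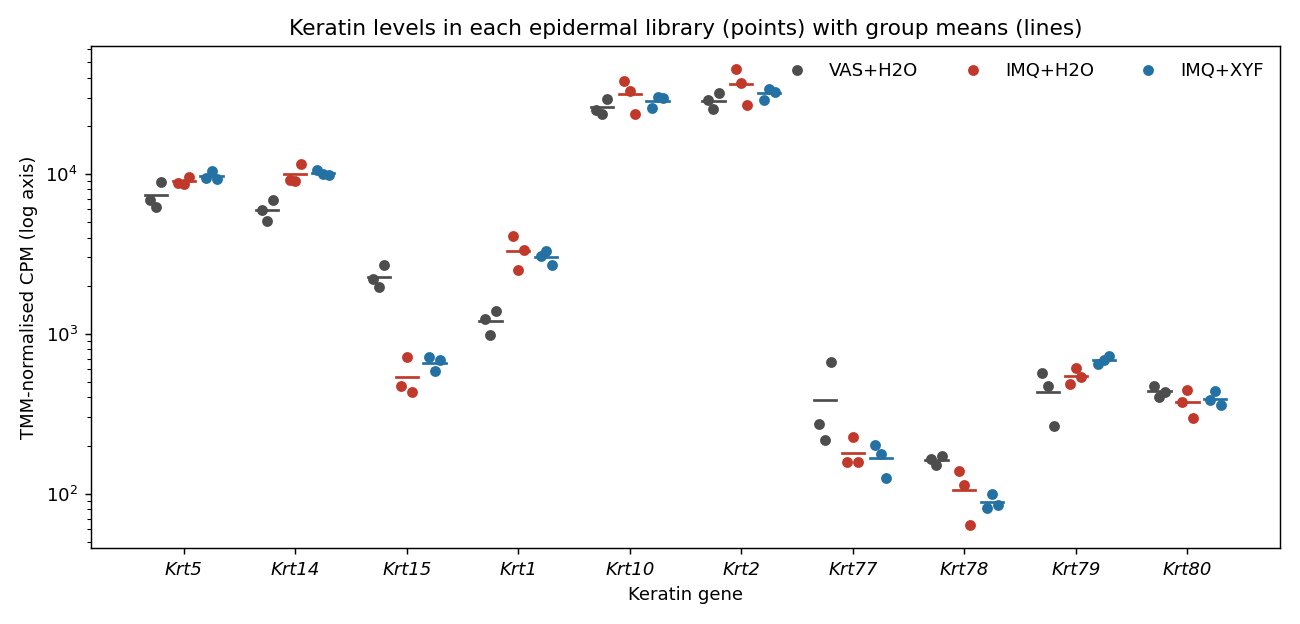
TMM-normalised CPM of the 10 keratins on a log axis, with a point for each library and a line for each group mean (n = 3). Krt15 lies between 1960 and 2680 CPM in VAS + H2O and between 430 and 713 CPM in the 6 libraries with imiquimod, and Krt1 between 978 and 1380 CPM against 2500 to 4080 CPM.

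Differentially expressed genes (DEGs) were required to have an adjusted p of 0.05 or less and an absolute log2 fold change of 1 or more. Between IMQ + H2O and VAS + H2O, 2 of the 10 keratins were DEGs, against 7.68% of 18009 genes tested. Krt1 was higher and Krt15 lower in IMQ + H2O. By the adjusted p alone 3 keratins passed, against 22.1% of all genes, and 4 had no overlap between the groups, against 45% of all genes. Between IMQ + XYF and VAS + H2O, 2 keratins were DEGs against 7.64% of 17954 genes, 4 passed by the adjusted p alone against 28.7%, and 7 had no overlap against 47.5%. The median log2 fold change of the 10 was 0.27 and 0.14 in these comparisons, against -0.03 and -0.04 over all genes tested. Both comparisons use the same VAS + H2O libraries, so their values are given side by side. In bulk RNA, fewer cells of a type and less RNA per cell cannot be told apart.

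Among the basal keratins, Krt15 (ENSMUSG00000054146, chromosome 11, 100131758 to 100135928 of GRCm38, minus strand) changed most. It had 2210, 1960 and 2680 CPM in VAS + H2O, 471, 712 and 430 CPM in IMQ + H2O, and 713, 583 and 684 CPM in IMQ + XYF. The lowest control library was above every library with imiquimod, and the groups given imiquimod overlapped with each other. The log2 fold change was -2.10 (SE, the standard error, 0.22, adjusted p = 0.00575) in IMQ + H2O and -1.79 (SE 0.14, adjusted p = 0.000789) in IMQ + XYF, each against VAS + H2O.

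Krt14 (ENSMUSG00000045545, chromosome 11, 100203162 to 100207548, minus strand), the type I partner of Krt5, had 5910, 5070 and 6900 CPM in VAS + H2O. It had 9090, 9060 and 11600 CPM in IMQ + H2O and 10500, 9980 and 9870 CPM in IMQ + XYF. Every library with imiquimod was above every control library. Its log2 fold change against VAS + H2O was 0.72 (SE 0.16, adjusted p = 0.0227) in IMQ + H2O and 0.76 (SE 0.13, adjusted p = 0.00651) in IMQ + XYF, so that it passed the adjusted p without reaching the fold of a DEG. The call in IMQ + H2O was lost without VAS + H2O replicate 1 (adjusted p = 0.0722) and without VAS + H2O replicate 2 (adjusted p = 0.0586), with log2 fold changes of 0.71 and 0.63, and with the covariate described below (0.37, adjusted p = 0.627), within a range of adjusted p from 0.000173 to 0.627 over all 14 alternatives.

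Krt5 (ENSMUSG00000061527, chromosome 15, 101707070 to 101712898, minus strand), the basal type II keratin, had 6900, 6230 and 8880 CPM in VAS + H2O, 8740, 8600 and 9620 CPM in IMQ + H2O, and 9440, 10400 and 9270 CPM in IMQ + XYF. The control and model groups overlapped through VAS + H2O replicate 3, and all IMQ + XYF libraries were above the control libraries. Its log2 fold changes against VAS + H2O, 0.28 (SE 0.15, adjusted p = 0.212) in IMQ + H2O and 0.40 (SE 0.15, adjusted p = 0.0846) in IMQ + XYF, did not pass. The former was 0.18 without VAS + H2O replicate 2 and 0.47 without VAS + H2O replicate 3. Without VAS + H2O replicate 3 the value in IMQ + XYF was 0.58 and passed (adjusted p = 0.0167, with 0.0167 to 0.213 over the libraries left out), and DESeq2 also called it (adjusted p = 0.0224).

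Krt5 and Krt14 share more sequence with other genes than the other 8, in particular with keratins of injured skin. Of the stretches of 50 bases in the Krt14 transcripts, 13.9% also occur in transcripts of other genes, namely Krt16 and Krt17, and for Krt5 the share is 12.2%, with Krt6a, Krt6b and Gm5478 among them. Krt16 rose from 67.5 ± 14.4 CPM in VAS + H2O to 2700 ± 1140 CPM in IMQ + H2O and 2330 ± 313 CPM in IMQ + XYF (SD, n = 3). How reads that match several genes were assigned is not given in the sources used here, and the part of such reads in the values of Krt14 and Krt5 was not tested. For Krt15 the shared portion was 0.640%, and for Krt1, Krt2, Krt77, Krt78 and Krt79 it was 0%.

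Among the suprabasal keratins, Krt1 (ENSMUSG00000046834, chromosome 15, 101845426 to 101850794, minus strand) was the one that passed in both comparisons with the control group. It had 1240, 978 and 1380 CPM in VAS + H2O, 4080, 2500 and 3330 CPM in IMQ + H2O, and 3050, 3300 and 2680 CPM in IMQ + XYF. The highest control library was below all 6 libraries with imiquimod. The log2 fold change was 1.45 (SE 0.21, adjusted p = 0.0089) in IMQ + H2O and 1.33 (SE 0.15, adjusted p = 0.00172) in IMQ + XYF.

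Krt10 (ENSMUSG00000019761, chromosome 11, 99385254 to 99389364, minus strand), the type I partner of Krt1, had 25100, 23700 and 29300 CPM in VAS + H2O, 38000, 33100 and 23800 CPM in IMQ + H2O, and 25800, 30400 and 29900 CPM in IMQ + XYF. IMQ + H2O held both the highest library and one of the lowest. Its log2 fold changes of 0.27 (SE 0.19, adjusted p = 0.343) and 0.14 (SE 0.13, adjusted p = 0.452) against VAS + H2O did not pass. The former was 0.15 without IMQ + H2O replicate 1 and 0.44 without IMQ + H2O replicate 3, and the latter ran from 0.076 to 0.25 over the libraries left out. A gene on the opposite strand, Gm11940, overlaps Krt10, and 2.37% of the stretches of 50 bases in Krt10 transcripts are shared with it. The strand setting of the counting is not given.

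Krt2 (ENSMUSG00000064201, chromosome 15, 101810689 to 101818169, minus strand) had 28800, 25300 and 32100 CPM in VAS + H2O, 45400, 36800 and 27100 CPM in IMQ + H2O, and 28800, 33800 and 32700 CPM in IMQ + XYF. Its libraries stood in nearly the same order as those of Krt10. Over the 9 libraries, which share their groups and treatments, Pearson's r of the log2 CPM of Krt2 and Krt10 was 0.99, given as a description. The log2 fold changes of Krt2 against VAS + H2O, 0.33 (SE 0.20, adjusted p = 0.281) and 0.15 (SE 0.13, adjusted p = 0.443), did not pass. Without IMQ + H2O replicate 1 or 3 the former was 0.18 or 0.50, and over the libraries left out the latter ran from 0.063 to 0.25.

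Krt77 (ENSMUSG00000067594, chromosome 15, 101858731 to 101869705, minus strand), a type II keratin that lies next to Krt1, had 272, 218 and 664 CPM in VAS + H2O, 157, 226 and 157 CPM in IMQ + H2O, and 201, 176 and 126 CPM in IMQ + XYF. A single library, VAS + H2O replicate 3, stood far above the rest. The log2 fold changes of -1.11 (SE 0.41, adjusted p = 0.0988) and -1.20 (SE 0.42, adjusted p = 0.0779) against VAS + H2O did not pass. With VAS + H2O replicate 3 left out they were -0.43 and -0.53, while without VAS + H2O replicate 2 the value in IMQ + XYF was -1.48 and passed (adjusted p = 0.0467, with 0.0467 to 0.211 over the libraries left out). With the covariate described below they were -2.08 and -1.32 and did not pass.

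The same control library was the lowest for Krt79 (ENSMUSG00000061397, chromosome 15, 101929332 to 101940324, minus strand), a keratin of the upper hair follicle and the sebaceous duct. Its levels were 566, 470 and 264 CPM in VAS + H2O, 483, 615 and 539 CPM in IMQ + H2O, and 652, 682 and 731 CPM in IMQ + XYF. All IMQ + XYF libraries were above all others. Against VAS + H2O the log2 fold changes were 0.32 (SE 0.27, adjusted p = 0.421) in IMQ + H2O and 0.67 (SE 0.26, adjusted p = 0.0953) in IMQ + XYF. Without VAS + H2O replicate 3 the former was 0.095 (adjusted p = 0.685, with 0.214 to 0.685 over the libraries left out), and the latter was 0.43 and passed (adjusted p = 0.0381, with 0.0381 to 0.213 over the libraries left out), and DESeq2 gave an adjusted p of 0.0215. Without VAS + H2O replicate 1 the log2 fold changes were 0.55 and 0.91 and did not pass.

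VAS + H2O replicate 3 also had the lowest sum of sebaceous gland markers. The 8 sebaceous gland markers summed to 341, 387 and 190 CPM in VAS + H2O, 364, 265 and 261 CPM in IMQ + H2O, and 283, 328 and 255 CPM in IMQ + XYF, with Soat1 the most abundant at 122, 138 and 73.6 CPM in VAS + H2O and no marker at 0. Scd3 was the 1 sebaceous marker that passed, lower in IMQ + H2O (log2 fold change -1.15, adjusted p = 0.0445) and in IMQ + XYF (-1.31, adjusted p = 0.0209) than in VAS + H2O, and was named after its values were seen. Krt71 and Krt25, keratins of the inner root sheath, had 3.96 and 3.73 CPM in that library and at most 0.484 and 0.304 CPM in the other 8, and were named after their values were seen. The hair keratins as a list summed to 69.1, 46.8 and 62.8 CPM in libraries of VAS + H2O, of which Krt75 took 56.5, 37.8 and 39 CPM. Krt73 and Krt27 were also highest in VAS + H2O replicate 3, at 2.38 and 1.81 CPM, and were named after their values were seen. Krt84 and Krt32 were not highest there, nor were Krt28 and Krt74 of the same list. Krt28 had 0.656, 0.304 and 0.545 CPM and Krt74 0.0846, 0.364 and 0.086 CPM in VAS + H2O, and both were named after their values were seen. The part of these structures in the values of Krt77 and Krt79 was not tested.

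Krt78 (ENSMUSG00000050463, chromosome 15, 101946001 to 101954287, minus strand), a type II keratin of differentiating keratinocytes, had 165, 152 and 173 CPM in VAS + H2O, 138, 113 and 63.4 CPM in IMQ + H2O, and 81.4, 99.3 and 84.8 CPM in IMQ + XYF. All libraries with imiquimod were below the control libraries, with IMQ + H2O replicate 3 the lowest. The log2 fold change against VAS + H2O was -0.65 (SE 0.26, adjusted p = 0.112) in IMQ + H2O and -0.88 (SE 0.10, adjusted p = 0.00164) in IMQ + XYF, where it passed the adjusted p and not the fold. Without IMQ + H2O replicate 3 the former was -0.39 (adjusted p = 0.0755, with 0.0728 to 0.238 over the libraries left out). DESeq2 called it in IMQ + H2O as well (adjusted p = 0.0361, with 0.0361 to 0.650 over the alternatives). Whether the 2 changes differ is answered by IMQ + XYF against IMQ + H2O, where it did not pass.

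Krt80 (ENSMUSG00000037185, chromosome 15, 101347444 to 101370162, minus strand), a type II keratin linked to cell junctions, lay between 298 and 475 CPM over the 9 libraries. Its log2 fold changes against VAS + H2O were -0.24 in IMQ + H2O (SE 0.15, adjusted p = 0.279) and -0.15 in IMQ + XYF (SE 0.10, adjusted p = 0.318). With 1 library left out they ran from -0.36 to -0.11, the latter without IMQ + H2O replicate 3, and from -0.21 to -0.08. Its groups overlapped in every comparison, and an antisense gene, Gm35853, overlaps it.

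**Figure D2:**
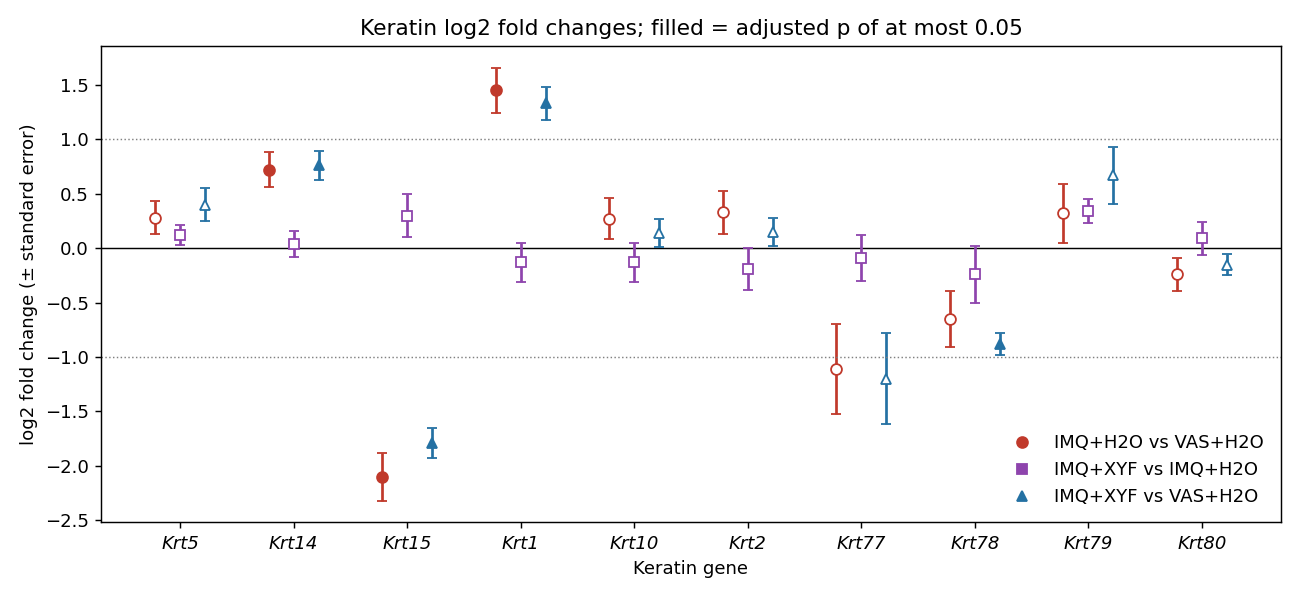
Log2 fold changes of the 10 keratins in the 3 comparisons with standard errors as bars, from fits of 3 against 3 libraries, filled where the adjusted p was 0.05 or less, with dotted lines at the fold of a DEG. Krt15 is near -2 and Krt1 above 1 against VAS + H2O, and no symbol is filled for IMQ + XYF against IMQ + H2O.

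IMQ + XYF against IMQ + H2O asks whether the decoction moved these keratins under imiquimod. By edgeR 0 of the 10 passed, by either rule, against 0.0281% of 17793 genes tested for both rules, with 1 keratin at an unadjusted p under 0.05 and 0 called by DESeq2. In 1 keratin, Krt79, the groups did not overlap, against 10.7% of all genes. Krt79 had a log2 fold change of 0.34 (SE 0.11, adjusted p = 0.693) with a 95% interval of 0.09 to 0.59. Without the covariate described below, the other 9 had log2 fold changes from -0.24 to 0.30 and adjusted p-values of 1.

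The intervals, from fits without a covariate, show which sizes remain possible at this number of libraries. For Krt15 the log2 fold change was 0.30, with a 95% interval from -0.17 to 0.77, and for Krt1 it was -0.13, from -0.56 to 0.31. For Krt14 it was 0.04, from -0.25 to 0.33, and for Krt5 0.12, from -0.11 to 0.34. Krt10 at -0.13 (-0.56 to 0.29) and Krt2 at -0.19 (-0.64 to 0.26) had similar widths. Leaving out IMQ + H2O replicate 2 gave 0.56 and IMQ + H2O replicate 3 gave 0.16 for Krt15, and leaving out IMQ + H2O replicate 1 gave -0.0062 and IMQ + H2O replicate 3 gave -0.37 for Krt2. The interval of Krt15 ended below the size of its difference between IMQ + H2O and VAS + H2O, and that of Krt1 likewise. With the dermal and cartilage score described below as a covariate, Krt1 had -0.66 and Krt77 -1.21, below their intervals (-0.59 to 0.41 for Krt77). Krt79 then had 0.71, above its interval of 0.09 to 0.59, and Krt78 had -0.79 in place of -0.24. None of these passed, and the score itself separated the groups compared. A p that misses the threshold does not show that the groups were equal.

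Ratios within a library do not depend on how libraries are scaled. The log2 ratio of Krt15 to Krt14 was -1.42, -1.37 and -1.36 in libraries of VAS + H2O, -4.27, -3.67 and -4.75 in those of IMQ + H2O and -3.88, -4.10 and -3.85 in those of IMQ + XYF. The control libraries lay close together and were above all others. The difference from VAS + H2O was -2.85 in IMQ + H2O and -2.56 in IMQ + XYF (exact permutation tests, two-sided, p = 0.1 for each, the smallest that 3 libraries against 3 allow). For Krt5 and Krt14, the partners of the basal filament, the log2 ratio was 0.22, 0.30 and 0.36 in libraries of VAS + H2O, -0.06, -0.08 and -0.27 in those of IMQ + H2O and -0.16, 0.06 and -0.09 in those of IMQ + XYF. In CPM, which takes no account of transcript length, Krt5 was thus above Krt14 in every control library. It was below Krt14 in 5 of the 6 libraries with imiquimod. Per kilobase of the principal transcript the mean of Krt14 was above that of Krt5 in every group. In VAS + H2O these means were 3510 and 3340 CPM per kb, with overlapping spreads. The ratio in CPM therefore shows a shift between groups and not which partner was more abundant.

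Ratios that involve Krt1 also separated the control group from the others. The log2 ratio of Krt1 to Krt10, the partners of the spinous filament, was -4.34, -4.60 and -4.41 in libraries of VAS + H2O, -3.22, -3.73 and -2.84 in those of IMQ + H2O and -3.08, -3.20 and -3.48 in those of IMQ + XYF. In linear terms Krt1 had 0.0494, 0.0414 and 0.047 of the CPM of Krt10 in the control libraries and between 0.0755 and 0.14 in the others. The log2 ratio of Krt1 to Krt5 differed from VAS + H2O by 1.14 in IMQ + H2O and 0.92 in IMQ + XYF, that of Krt2 to Krt1 by -1.13 and -1.19, and that of Krt77 to Krt1 by -2.39 and -2.38. The log2 ratio of Krt10 to Krt14, a suprabasal against a basal keratin, was lower than in VAS + H2O by a difference of -0.48 in IMQ + H2O and -0.63 in IMQ + XYF. The former was -0.17 with IMQ + H2O replicate 3 left out. In each of these 7 ratios the libraries of both imiquimod groups lay apart from the control libraries, with p = 0.1 by exact permutation test and 0.15 after adjustment over the 21 tests.

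Between IMQ + XYF and IMQ + H2O all 7 ratios overlapped. The differences ranged from -0.22 for Krt1 to Krt5 to 0.29 for Krt15 to Krt14, with exact permutation p-values from 0.4 to 1. Over the libraries left out the former ran from -0.38 to -0.034 and the latter from 0.027 to 0.57.

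**Figure D3:**
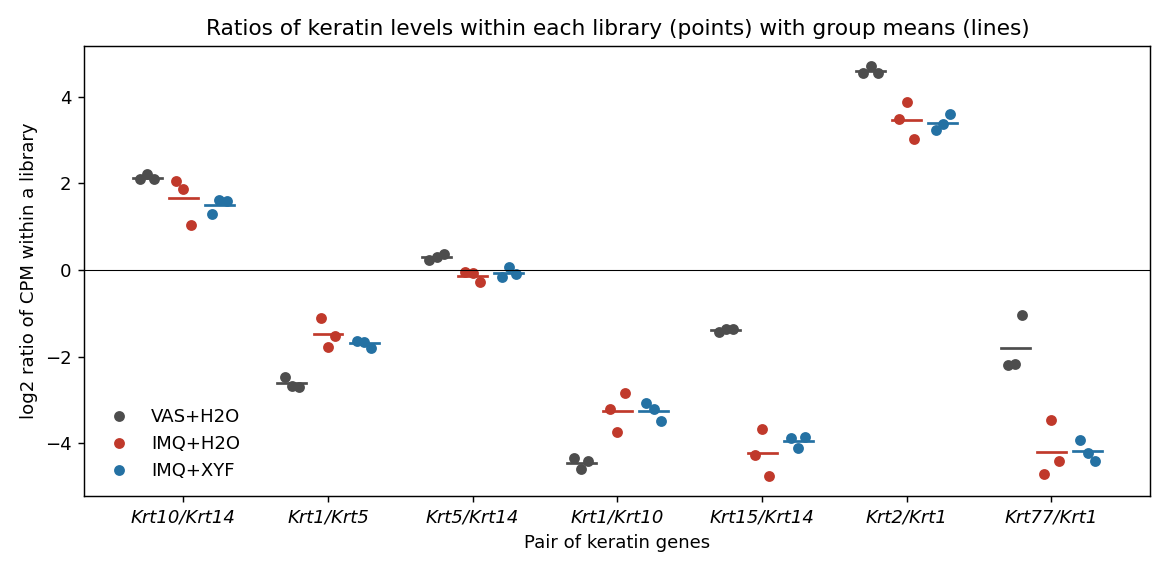
Log2 ratios of the CPM of keratin pairs within each library (points) with group means as lines (n = 3). The control libraries lie apart from the 6 libraries with imiquimod in all 7 pairs, as for Krt15 to Krt14 at -1.42 to -1.36 against -4.75 to -3.67.

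Markers of dermis and cartilage, which an epidermal sheet should lack, were counted in every library. The 10 dermal fibroblast markers summed to 109, 782 and 142 CPM in VAS + H2O, 62.7, 60.9 and 61.7 CPM in IMQ + H2O, and 249, 181 and 92.1 CPM in IMQ + XYF, with Dcn the most abundant at 23.2, 291 and 33.2 CPM in VAS + H2O and no marker at 0. Of these markers 4 of 10 were DEGs, lower in IMQ + H2O, namely Col1a2, and Fbn1, Col5a1 and Pdgfrb, the last 3 named after their values were seen, while DESeq2 called 8, and 9 had an unadjusted p under 0.05. In IMQ + XYF against VAS + H2O edgeR called 0, DESeq2 0, with 1 at an unadjusted p under 0.05, and against IMQ + H2O edgeR called 0 and DESeq2 5, with 9 at an unadjusted p under 0.05. The 10 cartilage markers summed to 221, 524 and 249 CPM in VAS + H2O, 91.8, 64.8 and 44.7 CPM in IMQ + H2O, and 224, 154 and 159 CPM in IMQ + XYF, with Acan the most abundant at 133, 278 and 132 CPM in VAS + H2O and Matn1 at 0 in every library. All 9 that were tested were lower DEGs in IMQ + H2O, and Col9a3 and Col9a2 were in IMQ + XYF, against VAS + H2O. In IMQ + XYF against VAS + H2O, DESeq2 gave 4 DEGs and 6 by the adjusted p alone, and 6 had an unadjusted p under 0.05. Against IMQ + H2O, 2 were higher DEGs in IMQ + XYF by edgeR, Col11a2 and Col9a1, while DESeq2 called 9 of 9, and all 9 had an unadjusted p under 0.05. Col9a2 and Col9a1 were named after their values were seen. The part of dermis and cartilage in the changes of the keratins was not tested beyond the fit given next. Muscle markers summed to 170 CPM in VAS + H2O replicate 2 and to between 4.6 and 49.3 CPM elsewhere.

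Some markers of immune and endothelial cells passed as well. The 8 markers of dendritic epidermal T cells summed to 70.5, 68.4 and 63.0 CPM in VAS + H2O libraries, 35.3, 49.6 and 42.6 CPM with imiquimod and water, and 47.0, 42.5 and 31.7 CPM with imiquimod and XYF. By the adjusted p 3 were lower in IMQ + H2O, Cd3g, Cd3e and Cd3d, and 5 in IMQ + XYF, Trdc, Cd3e, Trdv4, Cd3d and Xcl1. The 10 markers of neutrophils and macrophages summed to 60.7, 51.2 and 52.9 CPM in VAS + H2O libraries, 88.6, 108 and 209 CPM with imiquimod and water, and 149, 100 and 103 CPM with imiquimod and XYF. Cxcr2, a chemokine receptor, was a higher DEG in both comparisons (log2 fold changes 2.38 and 2.32), and Cd68 passed in IMQ + H2O (0.60). The levels of Cxcr2 were 11, 10.6 and 12.6 CPM in VAS + H2O and 49.2, 50.4 and 80.7 CPM in IMQ + H2O. Which cells the Cxcr2 reads came from was not tested. Csf1r, also of that list, went the other way at -0.098 and -0.35 and did not pass, with its IMQ + XYF libraries all below the control libraries. Csf3r passed in IMQ + XYF, with 22.9, 1.33 and 6.1 CPM against 0, 0.0911 and 0.086 CPM in VAS + H2O, too few for a fold, and it had 0.173, 0.858 and 38.0 CPM in libraries of IMQ + H2O. Of 6 endothelial markers 1, Vwf, was a lower DEG in both (-2.04 and -1.76). Of 7 Langerhans cell markers 0 passed in IMQ + H2O by edgeR and DESeq2, with 0 at an unadjusted p under 0.05, and 1 in IMQ + XYF, Mfge8, higher at 0.34. In IMQ + XYF the median log2 fold change of that list was -0.18, with 3 at an unadjusted p under 0.05. Cd74 at -0.18 and H2-Ab1 at -0.17 did not pass there. Cd3d, Trdv4, Xcl1 and Csf3r were named after their values were seen.

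A score of dermal and cartilage markers, their mean log2 CPM, was 2.85, 4.94 and 3.18 in libraries of VAS + H2O, 1.64, 1.46 and 1.32 in those of IMQ + H2O and 3.45, 3.03 and 2.62 in those of IMQ + XYF. The score thus separated IMQ + H2O from both other groups, while those overlapped. With the score as a covariate, no keratin passed between IMQ + H2O and VAS + H2O. Krt15 then had a log2 fold change of -2.37 (adjusted p = 0.247, with 1.2e-20 to 0.247 over the 14 alternatives) and Krt1 of 1.10 (adjusted p = 0.434, with 7.58e-11 to 0.434). In this comparison the score and the treatment cannot be told apart. Between IMQ + XYF and VAS + H2O, where the scores overlap, the same fit gave -1.86 for Krt15 (adjusted p = 0.00268, with 7.22e-31 to 0.00712 over the alternatives) and 1.25 for Krt1 (adjusted p = 0.00486, with 1.12e-16 to 0.0137), and both stayed DEGs. Without VAS + H2O replicate 2, the library with the highest score, 717 genes in place of 1383 were DEGs between IMQ + H2O and VAS + H2O, and 2 of the 10 keratins. Without VAS + H2O replicate 1 or IMQ + H2O replicate 3 the number of genes was 857 and 711.

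Hair follicle markers were read beside Krt15. The 11 markers summed to 290, 294 and 229 CPM in VAS + H2O, 160, 156 and 136 CPM in IMQ + H2O, and 186, 169 and 188 CPM in IMQ + XYF, with Lgr6 the most abundant and Shh at 0 in every library. Lgr6, a receptor of follicle and interfollicular stem cells, had 111, 103 and 109 CPM in VAS + H2O, 64.0, 53.3 and 36.8 CPM in IMQ + H2O, and 64.4, 70.3 and 65.6 CPM in IMQ + XYF. Its log2 fold changes against VAS + H2O were -1.08 (adjusted p = 0.013) and -0.69 (adjusted p = 0.00113). Of the 9 markers tested, 3 passed the adjusted p in IMQ + H2O, Lgr6, Sox9 and Msx2, all lower, and 2 of 8 in IMQ + XYF, Lgr6 and Msx2. Msx2 was named after its values were seen. Sox9, a transcription factor of the bulge, had a log2 fold change of -1 (adjusted p = 0.0447) in IMQ + H2O and did not pass in IMQ + XYF (-0.65, adjusted p = 0.139). Tchh, a protein of the inner root sheath, did not pass in any comparison. The part of the follicle in the change of Krt15 was not tested.

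The keratins of injured skin lie in the same gene clusters. All 4 of Krt6a, Krt6b, Krt16 and Krt17 were DEGs, higher in both imiquimod groups, with a median log2 fold change of 4.74 in IMQ + H2O and 4.53 in IMQ + XYF. Their summed level was 664, 487 and 468 CPM in VAS + H2O, 4300, 6010 and 13600 CPM in IMQ + H2O, and 8220, 5040 and 7820 CPM in IMQ + XYF. IMQ + H2O replicate 3, with the highest sum, had the lowest Krt10, Krt2 and Krt78 of its group. The sum of the granular layer genes was also lowest in that library, at 2370 CPM against 5940 and 5170 CPM in the other IMQ + H2O libraries, while Tgm3 of that list was highest there, at 432 CPM against 298 and 258 CPM.

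Among the remaining keratins, Krt24, Krt32 and Krt7 were lower and Krt42 and Krt84 higher DEGs by edgeR and DESeq2 in both comparisons with VAS + H2O. Krt24, a type I keratin, had the highest CPM of them, with 820, 652 and 563 CPM in VAS + H2O, 291, 410 and 230 CPM in IMQ + H2O, and 259, 224 and 314 CPM in IMQ + XYF. Against VAS + H2O it changed on the log2 scale by -1.14 (adjusted p = 0.0188) and -1.35 (adjusted p = 0.00281). Krt18, at no more than 0.949 CPM in any library, was a higher DEG in IMQ + XYF against VAS + H2O by edgeR. In IMQ + H2O against VAS + H2O it did not pass the low-count filter of edgeR, and DESeq2 called it higher (adjusted p = 0.0238). Its 0.106, 0 and 0 CPM in VAS + H2O were too few for a fold. DESeq2 but not edgeR also called Krt90 higher in both comparisons (adjusted p = 0.0195 and 0.00691). Krt90 had 0.423, 0.152 and 0 CPM in VAS + H2O, too few for a fold. Likewise DESeq2 but not edgeR called Krt8 lower in IMQ + H2O (-1.26, adjusted p = 0.0224) and, by the adjusted p alone, in IMQ + XYF (-0.81, adjusted p = 0.0492). Krt31, named after its values were seen, was called lower by DESeq2 in IMQ + XYF (adjusted p = 0.0432), where the libraries overlapped and the filter of edgeR dropped it. Krt31 had 0.0471, 0.0925 and 0 CPM in IMQ + XYF, too few for a fold. Krt7, Krt32, Krt42 and Krt84 lay between 0.278 and 16.4 CPM.

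The type I genes lie in a cluster on chromosome 11 and the type II genes in one on chromosome 15, where the type I gene Krt18 also lies. Genes that passed in opposite directions lie near each other. On chromosome 11, Krt15 with a log2 fold change of -2.10 in IMQ + H2O is separated by Krt19 and Krt9, which did not pass the low-count filter of edgeR in this comparison, from Krt14 with 0.72, and Krt16 with 5.31 is the next keratin gene after Krt14. On chromosome 15, Krt1 with 1.45 lies between Krt2 with 0.33 and Krt77 with -1.11, which did not pass.

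**Figure D4:**
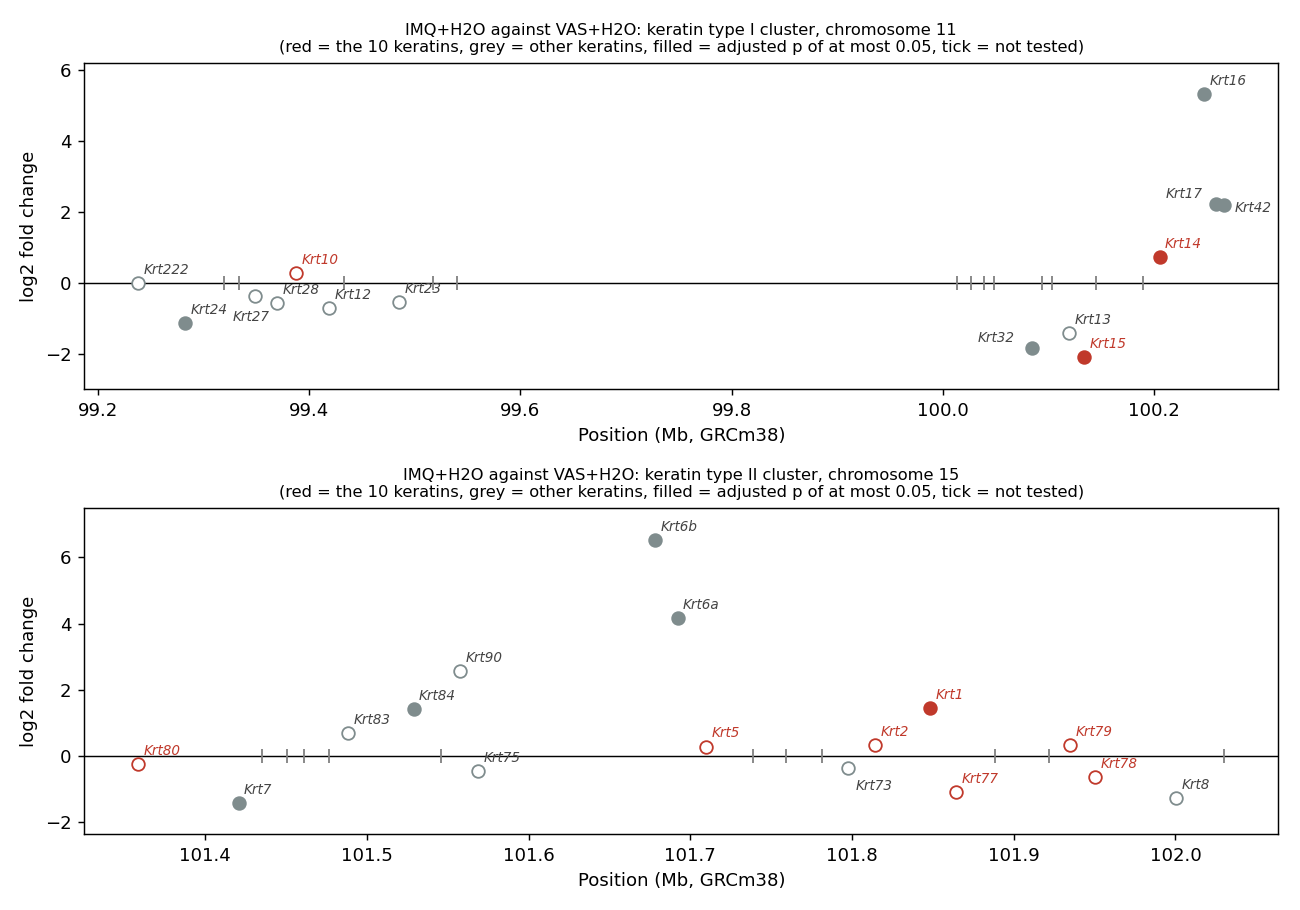
Log2 fold changes between IMQ + H2O and VAS + H2O along the keratin clusters of chromosomes 11 and 15 (position in Mb on GRCm38), with the 10 keratins in red, other keratins in grey, filled symbols for an adjusted p of 0.05 or less, and ticks for genes not tested by edgeR. Krt15 at -2.10 and Krt14 at 0.72 lie in the same stretch of chromosome 11, and the largest values are those of Krt6b at 6.54 and Krt16 at 5.31.

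Genes that work with these keratins were read from lists for each layer. Of 12 tested genes in a list of keratin linkers, junction plaque proteins and related proteins, 1 passed the adjusted p against VAS + H2O in each imiquimod group. This was Dst, which encodes the linker of basal keratins to hemidesmosomes. Dst had 1610, 1830 and 2100 CPM in VAS + H2O, 891, 1180 and 756 CPM in IMQ + H2O, and 826, 755 and 756 CPM in IMQ + XYF. On the log2 scale it changed by -0.99 (adjusted p = 0.015) in IMQ + H2O and -1.25 (adjusted p = 0.00102) in IMQ + XYF, and it was named after its values were seen. The most abundant of the list, Dsp, Pkp1 and Jup, had log2 fold changes between 0.02 and 0.16 in IMQ + H2O against VAS + H2O and did not pass in any comparison.

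Of 10 genes of basal layer adhesion, 2 were higher and 2 lower by the adjusted p in IMQ + H2O. Col17a1, a collagen of the hemidesmosome, had 2860, 3020 and 2770 CPM in VAS + H2O, 2270, 2340 and 1900 CPM in IMQ + H2O, and 1850, 2390 and 1920 CPM in IMQ + XYF. It was lower in both, with log2 fold changes of -0.42 (adjusted p = 0.0375) and -0.49 (adjusted p = 0.0215). Cdh3, Itga3 and Lamb3, named after their values were seen, had log2 fold changes of 1.37, 0.73 and -0.67 in IMQ + H2O. In IMQ + XYF 3 were higher, Cdh3, Itga3 and Cd151, and 3 lower, Col17a1, Lamb3 and Lama3, of which Cd151 and Lama3 were also named after their values were seen. Itgb4 and Itga6, the integrin chains of the hemidesmosome, did not pass in any comparison.

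Of 11 spinous layer genes, 2 passed the adjusted p in IMQ + H2O against VAS + H2O, Sfn and Dsc1, both higher and named after their values were seen, at log2 fold changes of 0.80 and 0.50. The most abundant of the list, Dmkn, Sbsn and Calm4, had log2 fold changes of 0.18, -0.23 and 0.24 and did not pass. Of 12 granular layer genes, 2 passed, Tgm3 at 1.17 and Cnfn at 0.91, also named after their values were seen. The most abundant of these, Hrnr, Asprv1 and Lor, had log2 fold changes of 0.64, 0.28 and -0.39 and did not pass. The median of the granular list was -0.11. Of 28 transcription factors of keratinocytes, 0 were DEGs by edgeR and by DESeq2, with 10 at an unadjusted p under 0.05, and 5 passed the adjusted p alone. Stat3, Grhl3 and Cebpb were higher and Gata3 and Nr3c1 lower, with log2 fold changes of 0.76, 0.48, 0.88, -0.73 and -0.76, and these were named after their values were seen.

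The same lists held calls in both directions between IMQ + XYF and VAS + H2O. Of the spinous layer genes Sfn at 0.72 and Dsc1 at 0.33 were higher, and Dsg1a at -0.48 and Calml3 at -0.44 lower, by the adjusted p. Of the granular layer genes Tgm3 at 1.04, Cnfn at 0.68 and Hrnr at 0.65 were higher, and Flg at -0.66 and Flg2 at -0.60 lower, again by the adjusted p. Of the transcription factors 2 were higher, Stat3 at 0.75 and Cebpb at 0.72, and 5 lower by the adjusted p, Klf4, Notch1, Rarg, Gata3 and Dlx3, at -0.43, -0.35, -0.38, -0.71 and -0.45. Apart from Hrnr and Klf4, these genes were named after their values were seen.

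Cell cycle genes mark dividing cells. Of 10 genes, 3 were DEGs in IMQ + H2O by edgeR and 7 by DESeq2, those of edgeR being Top2a, and Mcm5 and Mcm2, the last 2 named after their values were seen. In IMQ + XYF 10 were DEGs by both tools. All of these calls by edgeR were higher than VAS + H2O, and the median log2 fold changes of the list were 1.23 and 1.54. Mki67, the most abundant, had a log2 fold change of 0.89 in IMQ + H2O and did not pass by edgeR (adjusted p = 0.121). Their summed level was 287, 484 and 646 CPM in VAS + H2O, 897, 961 and 1220 CPM in IMQ + H2O, and 1090, 1350 and 1300 CPM in IMQ + XYF. VAS + H2O replicate 1 was the lowest library. Between IMQ + XYF and IMQ + H2O the median log2 fold change of the list was 0.32, higher in IMQ + XYF. There 0 passed in edgeR and DESeq2, with 0 at an unadjusted p under 0.05.

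Levels over the 9 libraries were compared with those of 9705 genes outside the keratin family that had a mean of at least 10 CPM, as a description over libraries that share their groups. The genes most like Krt14 in log2 CPM were Stip1, Slc25a10 and Cisd3, with Pearson's r of 0.998, 0.995 and 0.994. Those most like Krt10 were Dennd2d, Ggct and Calm4, with 0.944, 0.942 and 0.930.

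Krt10 and Krt2 had the highest levels and varied together between libraries, so their promoters are shown. Sequences are from RefSeq on GRCm38.p6, from 250 bases before to 50 bases after the gene start of RefSeq, and 7 of the 10 keratins matched an entry, Krt15, Krt1 and Krt80 being the others. The Krt14 window, chr11:100205981-100206280, lies within the gene interval given above and not at its end, so it does not describe the start of Krt14 as located there. Capitals mark matches on either strand to the letters of the TATA box (spelled TATAAA), of AP-1 (TGANTCA), of AP-2 (GCCNNNGGC) or of the GC box (GGGCGG). The Krt10 promoter is chr11:99389315-99389614 and that of Krt2 is chr15:101818120-101818419, both on the minus strand and printed in the direction of the gene.
Krt10: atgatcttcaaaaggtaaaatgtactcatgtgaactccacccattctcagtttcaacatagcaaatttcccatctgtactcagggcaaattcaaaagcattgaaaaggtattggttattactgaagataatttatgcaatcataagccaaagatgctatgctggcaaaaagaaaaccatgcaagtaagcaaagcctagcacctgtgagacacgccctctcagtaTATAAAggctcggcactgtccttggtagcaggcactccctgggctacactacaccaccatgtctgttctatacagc
Krt2: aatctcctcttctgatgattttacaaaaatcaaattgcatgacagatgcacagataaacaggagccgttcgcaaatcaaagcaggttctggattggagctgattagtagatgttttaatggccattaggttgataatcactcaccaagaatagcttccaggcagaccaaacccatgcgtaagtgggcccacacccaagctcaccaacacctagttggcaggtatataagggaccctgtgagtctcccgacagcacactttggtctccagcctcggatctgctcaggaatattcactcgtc
TATAAA was found in the Krt10 window, beginning 26 bases before the gene start, and in none of the other 6 keratin windows, whereas 13.6% of 32851 promoters of 300 bases held it. The letters of AP-1, AP-2 and the GC box were in none of the 7 windows, that of Krt14 among them, and in 7.81%, 16.6% and 35.7% of all promoters. A window without a match says only that these letters are not in it. The Krt10 window holds 2 CpG dinucleotides and 42.0% G and C bases, and that of Krt2 6 and 46.3%.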

How the data were processed

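The authors' deposited table gives raw counts per gene for 9 libraries. The submitters' notes name FastQC, STAR 2.5, Cuffnorm and DESeq 1.22.1 on GRCm38, without the counting tool or strand setting. Of 52550 genes, 21327 were 0 in every library. For each comparison its 6 libraries alone were fitted with edgeR 4.0.16 in R 4.3.3 (filterByExpr, TMM, two-sided quasi-likelihood test), with Benjamini-Hochberg adjustment over all genes tested. DESeq2 1.42.0 was the other tool. Log2 CPM used a prior count of 2. Ratios had exact permutation tests (two-sided), adjusted over 21. Alternatives covered scaling, filters, thresholds, a covariate, a replicate block and leaving out each library. Floors cover counting error only. The genes named were the 10 keratins, the 3 with the highest mean CPM of each list, other keratins called, and the 3 most similar to Krt14 and to Krt10, beside those marked in the text. The members and lists were chosen with earlier results of these data known.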

Additional observations from a re-analysis of the deposited data

How the results depend on the processing

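Results are given as IMQ + H2O against VAS + H2O unless another comparison is named. Of the log2 fold changes of the 10 keratins in the 3 comparisons, 232 under alternatives other than leaving out a library and 166 under leaving out 1 kept their direction and their side of the threshold. Of the others, 2 and 9 turned, 3 and 3 gained a call and 3 and 2 lost one, in the same order. With the dermal and cartilage score as a covariate edgeR called 0 genes and 0 keratins, against 1383 and 2 without it (6823 genes and 5 keratins at an unadjusted p under 0.05, and 1655 and 2 DEGs by DESeq2), and Krt5 turned to -0.028 (adjusted p = 0.979, with 0.0597 to 0.979 over its alternatives). Krt80 turned to -0.24 in IMQ + XYF against IMQ + H2O. The adjusted p alone gave 3986 genes, and glmTreat, which tests for a change beyond 1 on the log2 scale, gave 65 genes and 0 keratins. In IMQ + XYF against IMQ + H2O, where edgeR gave 5 genes and 966 had an unadjusted p under 0.05, DESeq2 gave 129, a fit of all 9 libraries 1, and the covariate and glmTreat 0 each. In IMQ + XYF against VAS + H2O the adjusted p alone gave 5152 genes and 4 keratins, and glmTreat 162 and 1. The cause of these changes was not tested, other than that stricter or looser thresholds call fewer or more genes by construction.

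With the replicate block, which takes libraries of the same number as pairs, the genes called were 1100, 0 and 1113 in the order IMQ + H2O against VAS + H2O, IMQ + XYF against IMQ + H2O, and IMQ + XYF against VAS + H2O, and the keratins 2, 0 and 2. No source used here states a pairing, and Pearson's r between libraries of the same number, after removing group means, was -0.13 to 0.11.

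Leaving out 1 library gave 711 to 1314 genes and 2 keratins in IMQ + H2O against VAS + H2O, 0 to 5 genes and 0 keratins in IMQ + XYF against IMQ + H2O, and 996 to 1350 genes and 2 to 3 keratins in IMQ + XYF against VAS + H2O. In IMQ + XYF against IMQ + H2O, where none passed, the log2 fold change turned in some of these fits for Krt14 (-0.029 to 0.16), Krt1 (-0.29 to 0.047), Krt10 (-0.31 to 0.011), Krt77 (-0.25 to 0.10), Krt78 (-0.51 to 0.0016) and Krt80 (-0.052 to 0.24). The log2 ratios that turned there were Krt10 to Krt14 (-0.47 to 0.045), Krt1 to Krt10 (-0.22 to 0.22), Krt2 to Krt1 (-0.27 to 0.15) and Krt77 to Krt1 (-0.25 to 0.37).

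With 3 libraries a group, exact permutation tests cannot go below p = 0.1. Scaling by total counts moved the median of all genes to -0.12 in IMQ + H2O and -0.11 in IMQ + XYF against VAS + H2O, from -0.03 and -0.04, and no keratin of the 10 changed sign under the scaling alternatives. Each of the 10 keratins had at least 2739 counts in every library. The assignment of reads shared between keratins and the strand setting of the counting are not given in the sources used here.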
